A study of Homo sapiens with 20 samples.

Results

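The loci of 10 genes of the transforming growth factor beta (TGF-beta) pathway were examined for binding of RUNX1, a DNA-binding regulator of blood cells, in THP-1 cells, a human cell line from an acute monocytic leukemia. The genes were TGFB1, TGFBR1, TGFBR2, BMPR2, SMAD3, SMAD6, SMAD7, SKI, SKIL and TGIF1. All RUNX1 peaks within 50 kb of the RefSeq span of one of them (assembly GRCh38.p14) were taken, which gave 58 of the 26642 peaks in the count table. In knockdown cells, doxycycline switched on an shRNA against PU.1, another such regulator, and in control cells a scramble shRNA; doxycycline was given to both, so the control shares the inducer and an expressed hairpin. Chromatin immunoprecipitation with sequencing (ChIP-seq) with an antibody against RUNX1 gave 6 control and 6 knockdown libraries in 2 batches, which are experimental rounds. Of the control libraries 3 fell in each batch, and of the knockdown libraries 2 fell in batch 1 and 4 in batch 2. All 12 come from THP-1 cells and separate immunoprecipitations, so p-values measure the spread between these libraries. Control and knockdown cells carry different hairpins and so are different THP-1 lines. Other differences between these lines were not tested apart from the knockdown. A further 8 immunoprecipitations with an unspecific IgG antibody were not analysed here, and the amount of PU.1 left after knockdown cannot be read from these counts.

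Ligands of the TGF-beta family bind pairs of serine/threonine kinase receptors, which phosphorylate receptor-regulated SMAD proteins. These join SMAD4, enter the nucleus and act on DNA together with cell type-specific factors, among them RUNX proteins. Inhibitory SMADs block the receptors, and the co-repressors SKI, SKIL and TGIF1 hold SMAD-bound genes down. In the myeloid lineage the pathway is known for restraining proliferation and for roles in monocyte and macrophage differentiation. RUNX1 and PU.1 are both regulators of that lineage and bind many of the same sites.

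Counts in peaks are given as normalised read counts, that is, raw counts divided by the size factor of the library (DESeq2, median of ratios). A peak was called gained or lost when its count differed between knockdown and control with an adjusted p under 0.05 (DESeq2 Wald test with batch as a covariate, Benjamini-Hochberg over all 26642 peaks) and a fold change over 1.1. Totals of reads in peaks ranged from 630247 to 1199004 in the control and from 938745 to 1719840 in the knockdown libraries. The 58 peaks held 0.205 to 0.227% of these reads in the control and 0.216 to 0.231% in the knockdown. Raw counts in a single library and peak lay between 3 and 297 with a median of 30. The log2 fold changes had a median standard error (SE) of 0.22.

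The upstream sequences of the second and the third SMAD3 start are shown because gained peaks lay over them, together with those of the other starts under a peak and, for comparison, of the first SMAD3 start. The RefSeq promoter table used here lists 29 transcription starts for 9 of the genes and has no entry for SKI. For each, the 250 bases before the start were read from the RefSeq promoter table (GRCh38.p14) and searched on both strands for TGTGGT, the core of the RUNX motif, for GAGGAA, the core bound by PU.1 and other ETS factors, and for CAGACA, a SMAD box. None of the 3 contains another. Peaks overlapped 4 of the 29 windows, at SMAD3 (chr15:67098429-67098678 and chr15:67125492-67125741, plus strand), SMAD7 (chr18:48949334-48949583, minus strand) and TGFB1 (chr19:41353923-41354172, minus strand). The window before the first SMAD3 start (chr15:67065352-67065601, plus strand) had no peak. Capitals mark TGTGGT or its reverse complement, and all sequences run 5′ to 3′ on the strand of the gene.
SMAD3 start at base 67098679, gained peak: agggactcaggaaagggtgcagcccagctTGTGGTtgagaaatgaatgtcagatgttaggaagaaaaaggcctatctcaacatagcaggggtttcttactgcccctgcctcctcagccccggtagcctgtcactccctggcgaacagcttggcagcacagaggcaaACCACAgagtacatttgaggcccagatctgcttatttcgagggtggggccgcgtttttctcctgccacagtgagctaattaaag
SMAD3 start at base 67125742, gained peak: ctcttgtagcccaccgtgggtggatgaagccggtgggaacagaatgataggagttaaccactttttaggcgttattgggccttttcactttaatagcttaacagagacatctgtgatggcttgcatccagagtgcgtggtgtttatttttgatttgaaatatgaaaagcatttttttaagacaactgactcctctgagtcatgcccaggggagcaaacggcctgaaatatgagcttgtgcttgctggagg
SMAD3 start at base 67065602, no peak: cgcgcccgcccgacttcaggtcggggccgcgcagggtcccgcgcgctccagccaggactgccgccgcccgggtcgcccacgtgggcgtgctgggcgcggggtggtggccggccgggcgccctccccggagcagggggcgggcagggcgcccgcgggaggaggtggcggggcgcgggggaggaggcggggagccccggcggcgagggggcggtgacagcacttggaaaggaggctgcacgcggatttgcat
SMAD7 start at base 48949333, peak with no call: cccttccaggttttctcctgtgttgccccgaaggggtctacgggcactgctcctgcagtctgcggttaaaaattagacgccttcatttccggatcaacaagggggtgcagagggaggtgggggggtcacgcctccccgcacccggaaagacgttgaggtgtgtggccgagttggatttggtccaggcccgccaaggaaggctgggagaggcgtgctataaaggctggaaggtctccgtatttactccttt
TGFB1 start at base 41353922, peak with no call: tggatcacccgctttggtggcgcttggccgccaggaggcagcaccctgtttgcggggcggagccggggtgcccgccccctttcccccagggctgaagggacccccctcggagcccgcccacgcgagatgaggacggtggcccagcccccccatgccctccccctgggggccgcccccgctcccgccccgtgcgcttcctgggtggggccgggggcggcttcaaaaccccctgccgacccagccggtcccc

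The window before the second SMAD3 start held TGTGGT at 2 places, once on each strand, and the other 4 printed windows held none of the 3 motifs. Among the 29 windows, 3 held TGTGGT, the other ones lying at BMPR2 and at a TGIF1 start, neither with a peak. GAGGAA was found in 5 and CAGACA in 7. Over the windows of all 34943 listed human starts, the shares with each motif were 10.99%, 23.61% and 13.62%.

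Of the 58 peaks, 11 gained and 9 lost RUNX1 on PU.1 knockdown, so 34.5% were called, beside 42.0% of all peaks tested. Gains made up 21.3% and losses 20.7% of all peaks. The median log2 fold change was 0.10 over the 58 peaks and -0.02 over all peaks. The changes did not run one way within a gene: TGFBR1, TGFBR2, SMAD3, SMAD7 and SKIL had both gained and lost peaks, TGFB1 had gained peaks alone, and BMPR2, SMAD6, SKI and TGIF1 had no call. When the normalised counts of all peaks of a gene were summed, the ranges of control and knockdown libraries overlapped at 9 genes and were apart at TGFBR2. There the sum was 92.2, 112 and 118 (lowest, median and highest) in control and 123, 134 and 137 in knockdown libraries. Sums were not computed for other genes, so how often they are apart elsewhere is not known.

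**Figure D1:**
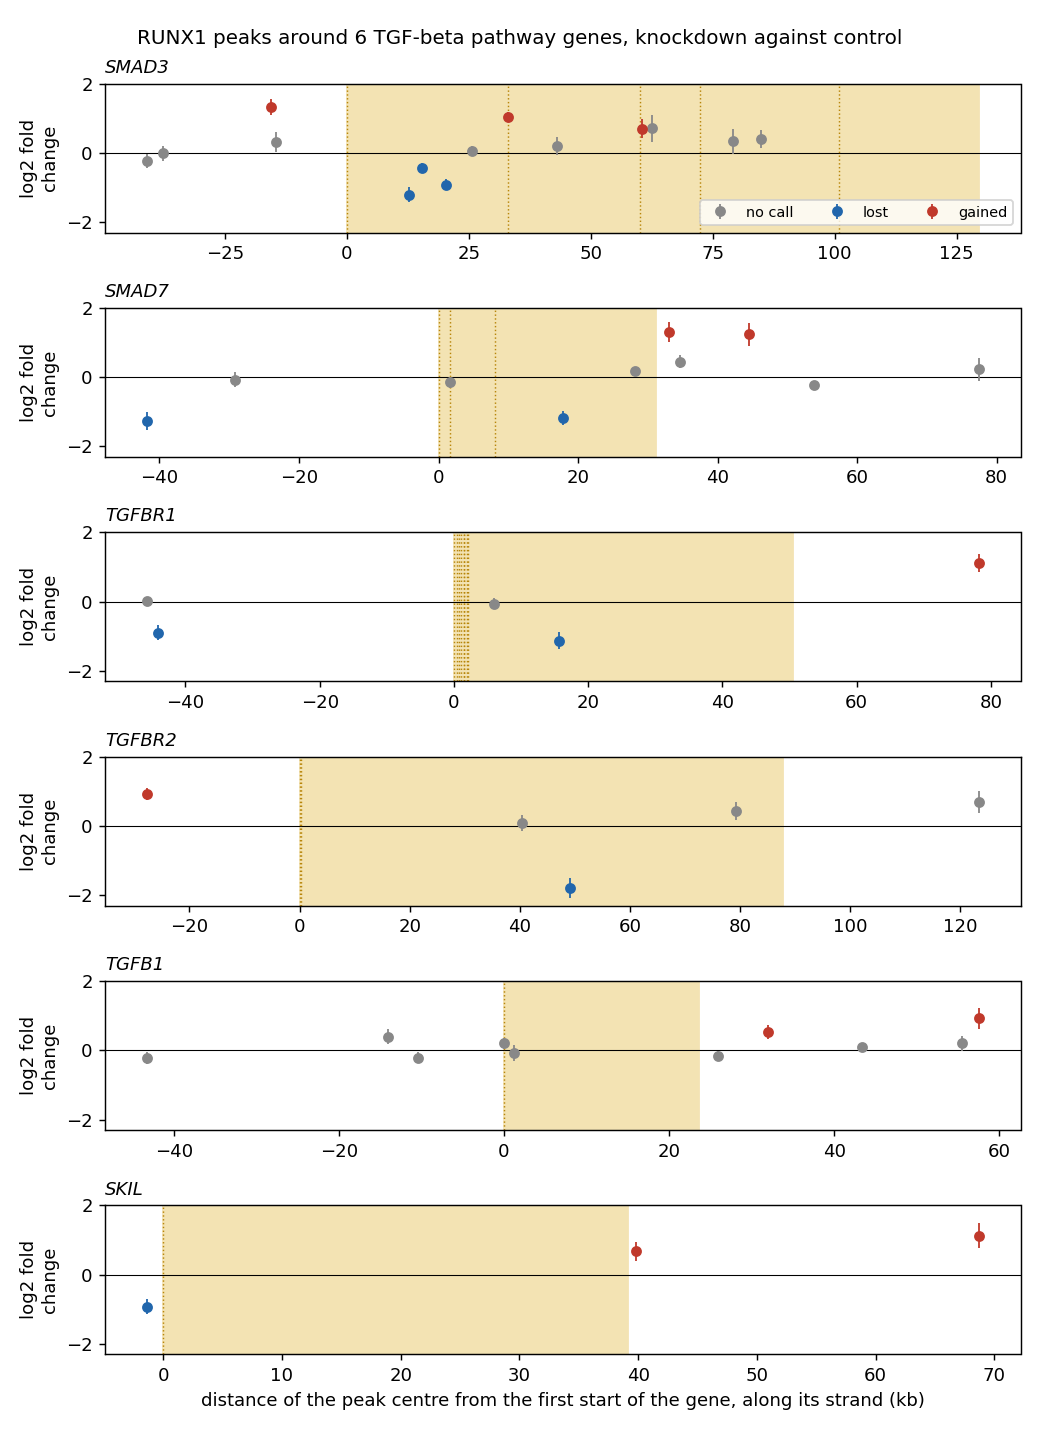
Log2 fold change of RUNX1 counts (knockdown against control, bars are SE) for each peak of 6 genes, by distance of the peak centre from the first start of the gene in kb, with the gene span shaded and listed starts dotted. Gained (red) and lost (blue) peaks lie side by side at SMAD3, SMAD7, TGFBR1, TGFBR2 and SKIL, while TGFB1 has no lost peak. Uncalled (grey) peaks are present at all of the genes shown except SKIL.

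TGFB1 (gene 7040, chr19:41330323-41353922, minus strand), which encodes the main secreted ligand of immune cells, had 10 peaks, of which 2 were gained and none lost. The peak over its start (chr19:41353247-41354549) held 39.9, 49.3 and 78.0 normalised counts (lowest, median and highest) in control and 41.0, 54.4 and 80.3 in knockdown libraries. These ranges nearly coincided, and the log2 fold change of 0.20 had a 95% interval from -0.12 to 0.52 (DESeq2 adjusted p = 0.332). The same peak reaches into B9D2, a cilium gene on the other side, so its reads cannot be assigned to either gene.

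Both gained peaks at TGFB1 lay behind the 3′ end, in other genes. The stronger call (chr19:41296001-41296784, inside HNRNPUL1) held 3.72, 9.94 and 17.6 counts in control and 12.8, 19.7 and 26.4 in knockdown libraries. The groups overlapped, and the log2 fold change was 0.92 ± 0.31 (SE, n = 6 and 6 libraries; DESeq2 adjusted p = 0.00933). Without knockdown replicate 2 this peak had an adjusted p of 0.0560. The other (chr19:41321366-41322397, inside CCDC97) rose by 0.53 ± 0.20 on the log2 scale (DESeq2 adjusted p = 0.0248), from a range of 19.6 to 36.4 to one of 33.8 to 47.5. Its call was lost without control replicate 3, 5 or 6 or knockdown replicate 6, with adjusted p of 0.0646, 0.0880, 0.0671 and 0.0653, and when each log2 fold change was centred on the median of its 10 Mb window, with 0.0667. The other 7 peaks had log2 fold changes between -0.22 and 0.39 with no call.

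TGFBR1 (gene 7046, chr9:99103647-99154192, plus strand) encodes the type I receptor that phosphorylates SMAD2 and SMAD3, and it had 1 gained and 2 lost peaks among 5. None of its 8 listed starts lay under a peak. The nearest peak, 5508 bases into the gene (chr9:99109155-99110035), held 36.4, 71.2 and 98.0 counts in control and 54.6, 72.4 and 78.3 in knockdown libraries. Its log2 fold change of -0.06 (95% interval -0.36 to 0.25) was not called. Further in, 15363 bases from the first start, the peak at chr9:99119010-99119607 held 20.5, 29.4 and 34.7 counts in control and 9.88, 13.2 and 17.7 in knockdown libraries. Every knockdown library lay below every control library, and the log2 fold change was -1.13 ± 0.25 (DESeq2 adjusted p = 5.68e-05).

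The 2 outer calls at TGFBR1 had opposite signs. The peak at chr9:99058903-99060142, 43505 bases before the gene and inside COL15A1, a collagen gene, fell by 0.90 on the log2 scale (SE 0.22; DESeq2 adjusted p = 0.000182), from 28.4, 34.2 and 57.2 to 17.8, 19.3 and 25.2 counts. The peak at chr9:99181581-99182150, 27389 bases behind the gene and in no protein-coding gene, rose 2.15-fold (DESeq2 adjusted p = 0.000101), from 8.67, 13.8 and 22.1 to 23.8, 28.8 and 38.2 counts. The groups did not overlap at either peak. The neighbouring COL15A1 peak at chr9:99057176-99058646, next to the lost one, held 91.6 to 141 counts in control and 107 to 125 in knockdown libraries, with a log2 fold change of 0.02.

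TGFBR2 (gene 7048, chr3:30606356-30694142, plus strand), the type II receptor that binds the ligand first, showed the steepest loss of the 58 peaks. At chr3:30655231-30655889, inside the gene, control libraries held 19.5, 26.0 and 32.6 counts, and knockdown libraries 6.61, 7.68 and 8.31. The knockdown counts stayed within a narrow band far below the lowest control library. The log2 fold change was -1.79 ± 0.29 (DESeq2 adjusted p = 7.92e-09). It was -1.73 ± 0.55 in batch 1 (adjusted p = 0.0209) and -1.82 ± 0.41 in batch 2 (adjusted p = 0.000120).

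The peak nearest the TGFBR2 start moved the other way. This peak lay 27371 bases before the gene (chr3:30578259-30578985) and held 23.0, 28.7 and 42.9 counts in control and 48.4, 59.0 and 66.3 in knockdown libraries. All knockdown libraries exceeded all control libraries, and the log2 fold change was 0.93 ± 0.18 (DESeq2 adjusted p = 2.98e-06). The other 3 TGFBR2 peaks had log2 fold changes of 0.07, 0.44 and 0.70 and no call. BMPR2 (gene 659, chr2:202376327-202567749, plus strand), a type II receptor for bone morphogenetic proteins, had a single peak, inside the gene (chr2:202437282-202438148). It held 9.22, 14.4 and 23.4 counts in control and 19.1, 24.0 and 28.5 in knockdown libraries, a log2 fold change of 0.55 ± 0.26 that missed the threshold (DESeq2 adjusted p = 0.0731). With edgeR, without the batch term or without control replicate 5 its adjusted p was 0.0405, 0.0429 and 0.0467. In the other 16 of 19 alternative fits the peak stayed uncalled, with adjusted p up to 0.225.

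SMAD3 (gene 4088, chr15:67065602-67195169, plus strand), the receptor-regulated SMAD among the 10 genes, had 14 peaks, the most of any, with 3 gained and 3 lost. The smallest adjusted p of the 58 peaks belonged to a gain over its second listed start, at base 67098679. This peak (chr15:67098050-67099167) covers the whole sequence window with the 2 TGTGGT matches printed above. Control libraries held 37.9, 44.8 and 58.5 counts and knockdown libraries 76.4, 90.1 and 105. The groups were far apart, and the log2 fold change was 1.03 ± 0.14 (DESeq2 adjusted p = 3.04e-11). In batch 1 it was 1.06 ± 0.28 and in batch 2 1.02 ± 0.21, called in each (adjusted p = 0.00386 and 4.44e-05). That the peak covers a listed start was seen after its values were known.

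The third listed start of SMAD3, at base 67125742, also lay under a gained peak (chr15:67125628-67126721), which covers 114 bases of the printed window. It held 10.5, 12.8 and 20.8 counts in control and 16.6, 22.0 and 28.9 in knockdown libraries, so the groups overlapped. The log2 fold change was 0.70 ± 0.27 (DESeq2 adjusted p = 0.0242). The call was lost without knockdown replicate 1, 2 or 6 or control replicate 6, with adjusted p of 0.0662, 0.0712, 0.0632 and 0.0950. These were the only called peaks over a listed start among the 20 calls.

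Upstream of SMAD3, a peak 15122 bases before the first start (chr15:67049659-67050480) had the largest gain of the 58. It held 12.7, 19.1 and 27.7 counts in control and 38.0, 45.3 and 62.1 in knockdown libraries, with no overlap. The log2 fold change was 1.32 ± 0.22 (DESeq2 adjusted p = 3.14e-08), with 1.61 ± 0.42 in batch 1 and 1.11 ± 0.30 in batch 2. A separate, adjoining peak (chr15:67050650-67051466) held 10.6 to 17.3 counts in control and 13.0 to 25.6 in knockdown libraries, with a log2 fold change of 0.31 ± 0.28 and no call.

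The stretch of SMAD3 between its first and second starts held the 3 losses. The peak nearest the first start, 12092 bases into the gene (chr15:67077694-67079028), held 35.1, 43.0 and 46.1 counts in control and 13.7, 18.8 and 20.5 in knockdown libraries. The next called without overlap (chr15:67085457-67086463) held 63.2, 74.3 and 86.4 in control and 31.9, 36.5 and 53.3 in knockdown libraries. The log2 fold changes were -1.20 ± 0.21 and -0.91 ± 0.16 (DESeq2 adjusted p = 7.08e-08 and 8.55e-08). Between them, the peak at chr15:67080371-67081652 fell by 0.44 (SE 0.16; adjusted p = 0.0150) with overlapping groups, 51.2 to 87.6 against 41.0 to 59.4 counts. Without control replicate 3 its adjusted p was 0.0516, and with at least 10 counts required in every library 0.0550. A strong peak between these and the second start (chr15:67090814-67091880) held 69.8, 82.7 and 95.8 counts in control and 82.2, 88.2 and 90.4 in knockdown libraries, and its log2 fold change of 0.07 (95% interval -0.17 to 0.31) was not called.

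**Figure D2:**
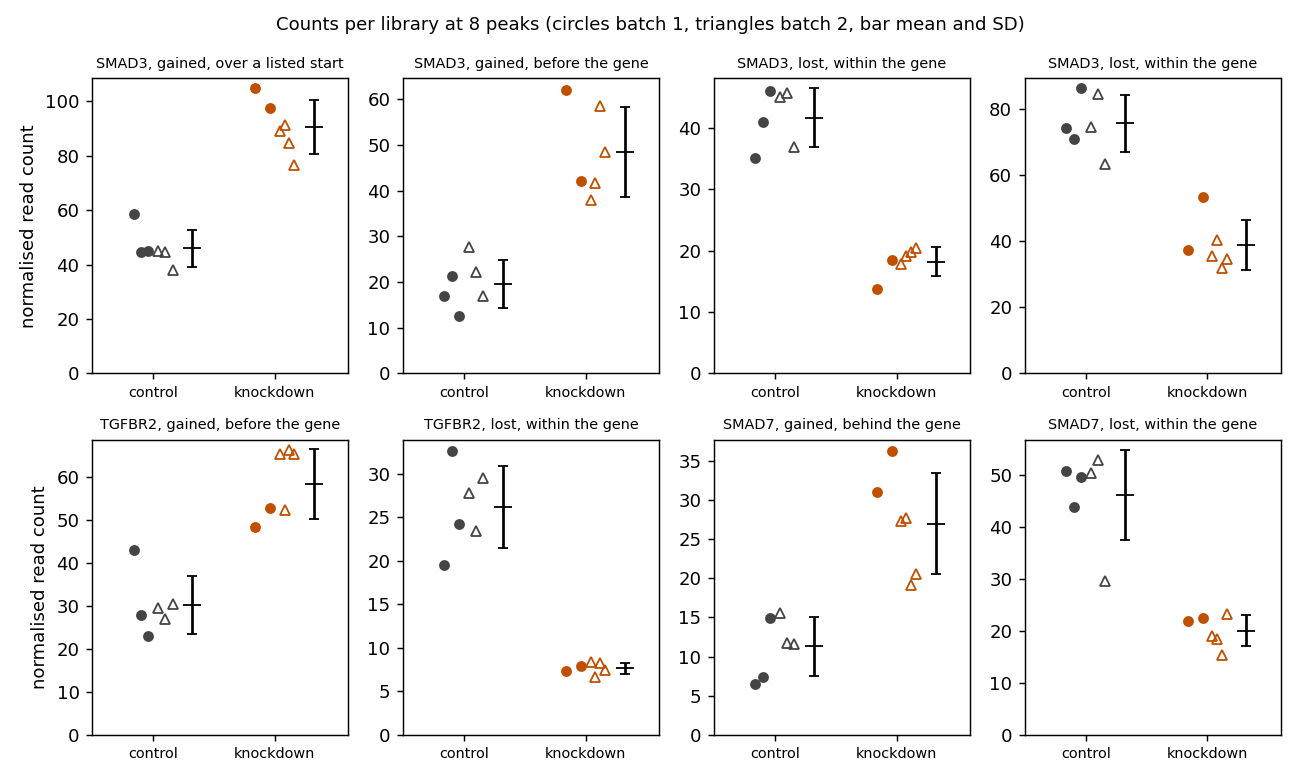
Normalised read counts per library (vertical axis from 0) at 8 called peaks of SMAD3, TGFBR2 and SMAD7, with circles for batch 1, triangles for batch 2 and the bar for the mean and SD over 6 libraries. Control and knockdown libraries do not overlap in any panel, and both lost SMAD3 peaks lie between the first and the second start of the gene.

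SMAD6 and SMAD7 encode the inhibitory SMADs, which compete for the receptors or mark them for degradation. SMAD7 (gene 4092, chr18:48919853-48950965, minus strand) had 10 peaks with 2 gained and 2 lost. The broad peak at its start (chr18:48948211-48950444), which covers the second listed start, held 49.3, 58.4 and 87.1 counts in control and 41.9, 53.0 and 72.4 in knockdown libraries. The ranges overlapped widely, and the log2 fold change was -0.15 (95% interval -0.46 to 0.16; DESeq2 adjusted p = 0.478). The peak with the highest counts at the locus (chr18:48921980-48923708), near the 3′ end, held 128 to 147 counts in control and 149 to 165 in knockdown libraries. Its groups did not overlap, but the log2 fold change was 0.19 ± 0.10 and was not called (adjusted p = 0.100). In 2 of 20 alternative fits the peak was called.

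Both SMAD7 gains lay behind the 3′ end. The peak 1581 bases behind it (chr18:48917540-48918272) held 6.50, 11.7 and 15.6 counts in control and 19.1, 27.5 and 36.2 in knockdown libraries, and the one 13050 bases behind it (chr18:48906218-48906803) held 4.69, 8.88 and 11.6 against 14.9, 18.8 and 32.1. The log2 fold changes were 1.31 ± 0.28 and 1.24 ± 0.33 (DESeq2 adjusted p = 2.79e-05 and 0.000679), without overlap. The losses lay inside the gene and upstream. The peak inside it (chr18:48932618-48933758) held 29.5, 49.9 and 52.8 counts in control and 15.3, 20.5 and 23.3 in knockdown libraries, and the peak 41417 bases before the gene (chr18:48992382-48993147) held 19.1, 26.3 and 38.0 against 7.24, 12.8 and 14.3. The groups were apart at each, with log2 fold changes of -1.17 ± 0.20 and -1.26 ± 0.27 (adjusted p = 1.51e-07 and 1.85e-05).

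SMAD6 (gene 4091, chr15:66702236-66782849, plus strand) had 3 peaks and no call. The one nearest its start (chr15:66712432-66714566) held 35.1, 43.0 and 50.6 counts in control and 39.6, 46.6 and 69.9 in knockdown libraries. Its log2 fold change was 0.17 (95% interval -0.17 to 0.51; DESeq2 adjusted p = 0.455). The other peaks had log2 fold changes of -0.44 and 0.43, in opposite directions.

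Among the co-repressors, SKIL (gene 6498, chr3:170357715-170396849, plus strand), itself a gene that TGF-beta signalling induces, had all of its 3 peaks called. The peak 966 bases before its start (chr3:170355938-170356749) held 32.3, 38.7 and 52.1 counts in control and 10.7, 22.2 and 25.0 in knockdown libraries. The groups did not overlap, and the log2 fold change was -0.92 ± 0.21 (DESeq2 adjusted p = 9.32e-05). A weak peak 29333 bases behind the gene, inside CLDN11, which encodes a tight junction protein (chr3:170426182-170426653), rose from 4.61, 6.62 and 8.67 to 11.2, 15.0 and 19.2 counts, by 1.12 ± 0.35 (adjusted p = 0.00523). The remaining peak, 378 bases behind the gene (chr3:170397227-170397864), rose by 0.67 ± 0.27 (adjusted p = 0.0315). That call was lost without control replicate 1, 2, 4 or 5 or knockdown replicate 2, 4 or 5, with adjusted p between 0.0505 and 0.121.

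SKI (gene 6497, chr1:2228319-2310213), the founding member of that co-repressor family, had 6 peaks and no call. The peak closest to either end of its span (chr1:2230977-2232382) held 30.5, 43.0 and 49.2 counts in control and 34.5, 39.0 and 53.3 in knockdown libraries, and the log2 fold change was 0.07 (95% interval -0.29 to 0.43). The peak with the highest counts of the 58 (chr1:2290041-2291816) lay in SKI and held 170, 181 and 205 counts in control and 165, 180 and 189 in knockdown libraries. Its log2 fold change of -0.04 had an interval from -0.21 to 0.14, the narrowest at the locus. TGIF1 (gene 7050, chr18:3412009-3459978, plus strand), a homeodomain co-repressor of SMAD2 and SMAD3, had a single peak, 5834 bases behind the gene (chr18:3465812-3466420). It held 7.37, 11.8 and 17.7 counts in control and 12.1, 15.4 and 21.8 in knockdown libraries, a log2 fold change of 0.50 ± 0.31 with no call (DESeq2 adjusted p = 0.185).

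Within batch 1 alone 6 of the 58 peaks were called, 3 gained and 3 lost, beside 5.38% gained and 6.61% lost of all peaks. Within batch 2 there were 14, 5 gained and 9 lost, beside 12.8% gained and 13.1% lost of all peaks. Called in both batches were 5 peaks, beside 10.4%: the SMAD3 peak over the second start, the SMAD3 peak upstream of the gene, the SMAD3 peak nearest the first start, and the lost peaks inside TGFBR2 and SMAD7. All 20 peaks called over both batches had the same sign in each batch, which their choice by the fit over both batches favours. The signs were the same at 45 of the 58 peaks, beside 21307 of all 26642. Control and knockdown libraries did not overlap in either batch at 17 peaks, 8 higher and 9 lower in the knockdown, beside 28.3% of all peaks (14.4% higher and 13.9% lower). No peak was called for a different response in the 2 batches after adjustment (product of genotype and batch, 0 of 26642 peaks by DESeq2 and 0 by edgeR). At an unadjusted p under 0.05 there were 0 of the 58 peaks and 669 of all 26642 peaks by DESeq2. By edgeR there were 3 of the 58. The edgeR count over all peaks is not given here, so these 3 have no background beside them. With 2 knockdown libraries in batch 1 this test can miss differences, so it does not show that the responses were equal. The batch 1 count rests on few libraries: it was 1 without control replicate 2 or 3, and 4 without control replicate 1. Without knockdown replicate 1 or 2 the batch holds 1 knockdown library, so no count is given. The batch 2 count fell to 9 without control replicate 5 or 6. Counts over all peaks for these fits are not given here.

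**Figure D3:**
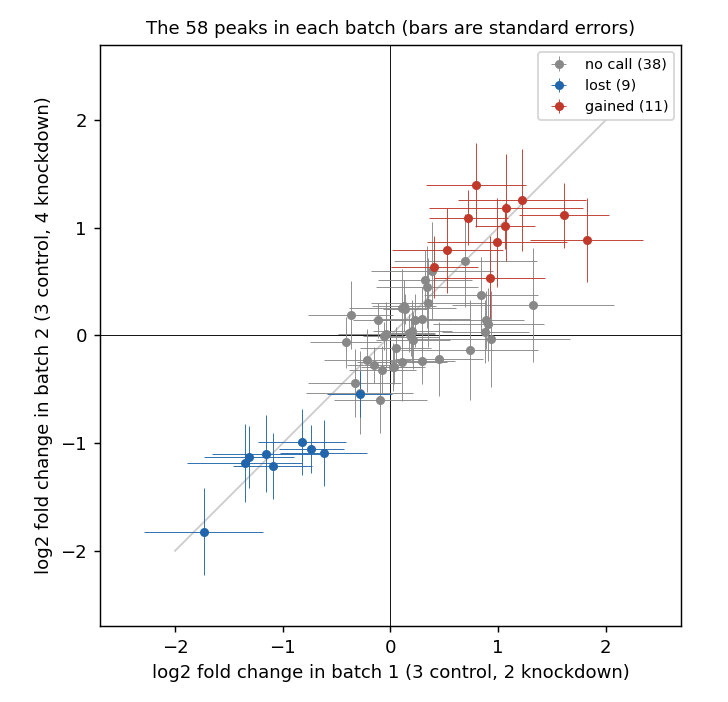
Log2 fold change of each of the 58 peaks in batch 1 (horizontal) and in batch 2 (vertical), with SE bars and the line of equal values. The 11 gained peaks lie in the upper right and the 9 lost peaks in the lower left, and the uncalled peaks scatter about the origin. Calls were made over both batches together, which favours the same sign in each.

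The place and level of the gained and lost peaks are given as a description, beside those of all peaks. Of the 39 peaks inside the span of any protein-coding gene, 5 were gained and 7 lost (12.8% and 17.9%), beside 18.3% and 20.2% of the 16492 such peaks in the whole table. Of the 19 outside all of them, 6 were gained and 2 lost (31.6% and 10.5%), beside 26.1% and 21.5% of 10150. The median normalised count over all libraries was 19.1 in the gained, 29.9 in the lost and 32.8 in the uncalled peaks of the pathway genes, beside 26.7, 31.4 and 32.6 over all peaks. The median width was 733 bases in the gained, 1007 in the lost and 1078 in the uncalled ones, and over all peaks it had the same order, with 771, 906 and 938 bases. Past a 2-fold change there were 6 gained and 5 lost peaks, beside 17.1% of all peaks.

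The wider pathway was read from a list of 71 further genes, of which 59 had a peak within 50 kb. Their 200 peaks, none shared with the 58, held 36 gained and 42 lost ones (39.0%), beside 42.0% of all peaks, and had a median log2 fold change of -0.02. The counts by role stand beside 21.3% gained and 20.7% lost over all peaks. They were made without centring on the 10 Mb window, after which 40.9% of all peaks were called. Single calls of the list shifted both ways with it. The 3 losses near LTBP3 (window median log2 fold change -0.34) then had Wald adjusted p of 0.516, 0.380 and 0.441. An uncalled peak near ZEB1 (chr10:31554356-31555029, window median 0.32) had 0.00163. Among ligands and latency proteins 8 of 41 peaks were gained and 11 lost. The strongest calls there were a gain inside LTBP1, which anchors latent TGF-beta in the matrix (chr2:33219662-33220272, from 9.80 ± 4.94 to 32.7 ± 8.90 counts, mean ± SD, n = 6), and a loss 15006 bases from FURIN, the protease that cleaves the TGF-beta precursor (chr15:90852581-90853582, from 135 ± 18.4 to 53.2 ± 7.53). Their log2 fold changes were 1.64 and -1.36 (DESeq2 adjusted p = 4.33e-07 and 1.06e-22). Among receptors and co-receptors 7 of 38 peaks were gained and 10 lost. A peak in TGFBR3, the co-receptor betaglycan (chr1:91804436-91805208), rose from 14.5 ± 9.41 to 53.3 ± 9.57 counts, and one in ACVR2A, an activin receptor (chr2:147866597-147867542), fell from 29.8 ± 6.71 to 10.3 ± 5.86, log2 fold changes of 1.90 and -1.52.

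The other SMAD genes had 9 peaks, 1 gained and 2 lost. The gain lay between SMAD5 and TGFBI, 44134 and 23867 bases from them (chr5:136087685-136088711, log2 fold change 1.59), and is counted for both. The stronger loss lay 4641 bases from SMAD9 (chr13:36925495-36926045, -1.71). Inhibitors, ubiquitin ligases and co-regulators had 7 gains and 9 losses in 41 peaks, led by a gain in RNF111, the ubiquitin ligase Arkadia (chr15:59041944-59042528, 1.71), and a loss in LDLRAD4, a membrane protein that sequesters SMAD2 and SMAD3 (chr18:13268784-13269359, -2.22). The non-SMAD branch had 6 gains and 2 losses in 14 peaks, and no test was made of this group against all peaks. Its steepest change was a loss 44036 bases from DAB2, an endocytic adaptor of the receptors (chr5:39469016-39469714), from 37.9 ± 12.1 to 4.17 ± 1.15 counts (log2 fold change -3.19; DESeq2 adjusted p = 6.06e-20), and its strongest gain lay in PRR5L, 27281 bases from TRAF6 (chr11:36455347-36456488, 1.40). Known target genes had 8 gains and 8 losses in 58 peaks, with the strongest loss in PPP1R9B, 33823 bases from the collagen gene COL1A1 (chr17:50147238-50150278, -1.62). A distance to a gene does not show which gene a peak acts on.

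**Figure D4:**
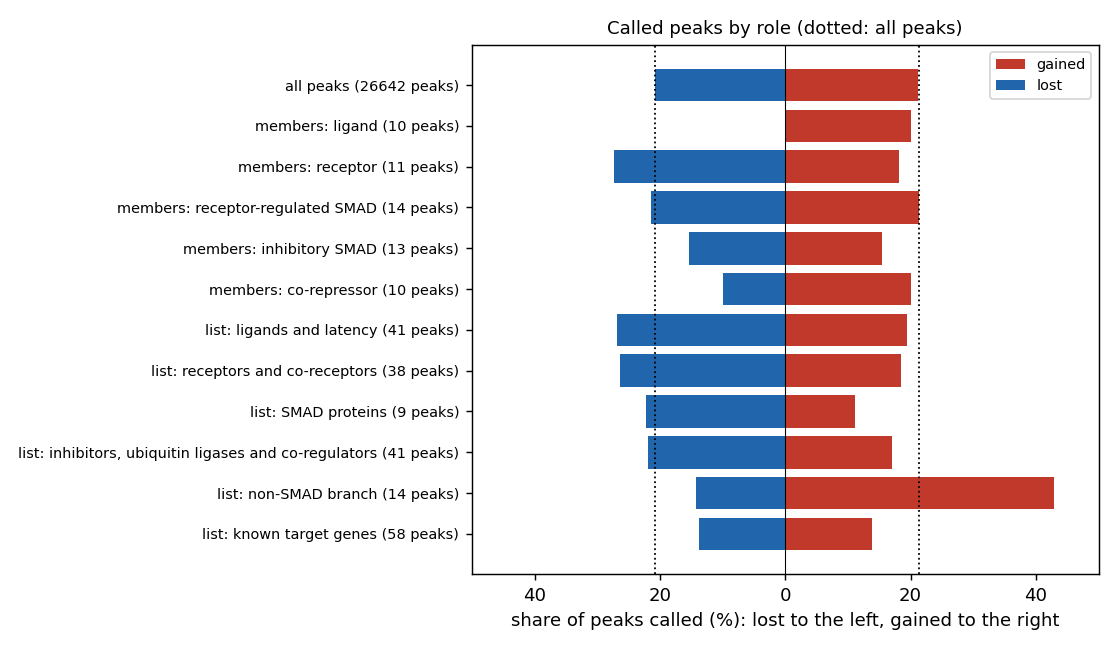
Share of peaks gained (right, red) and lost (left, blue) in percent for all peaks, the 10 genes by role and the further pathway genes by role, with dotted lines at the 21.3% gained and 20.7% lost of all peaks. The ligand group has no lost peak among 10, and the groups hold between 9 and 58 peaks each.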

How the data were processed

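RUNX1 ChIP-seq was analysed in 12 of 20 libraries of THP-1 cells, 6 per group; the 8 IgG libraries were not analysed here. Per the study's methods and the labels, the authors mapped reads by Bowtie2, dropped duplicates and alternative contigs, ran MACS2 on each condition within each batch, retained peaks found reproducibly in the batches, merged both conditions and counted with featureCounts (versions not given in the sources used here). The deposited table holds whole-number read counts for every peak and library without normalization, and it lists each peak's width as other information. Because the compared libraries also defined the peaks, the choice of peaks and the comparison share data.

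The methods name a mouse build and the labels GRCm38 and GRCh38. GRCh38 was used: 23.37% of peaks lay within 1 kb of a listed RefSeq start, against 3.92 to 4.83% after shifting all peaks by 10 kb to 1 Mb. The gene table has no exons, and no genome sequence was used here, so no exon, intron or peak sequence is given.

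Counts were tested with DESeq2 1.42.0 in R 4.3.3 (batch and genotype, no filter before the fit, all 26642 peaks), and with the quasi-likelihood test of edgeR 4.0.16 as an alternative. Both were also run on simulated counts with far fewer changed peaks than were called here, so that run does not show how reliable these calls are. Libraries of a group differed beyond sampling noise (chi-square per degree of freedom 1.29 to 2.24), so none was counted as a duplicate. The 95% intervals are Wald intervals. The members, the list of 71 further pathway genes and the motifs were chosen with earlier results of these data known. Named were, for each gene, the peak nearest its start and the gained and the lost call with the smallest adjusted p; for each role group of the list, the gained and the lost call with the smallest adjusted p. The remaining called peaks and the strong uncalled ones were added after their values were seen. Alternatives were other size factors, no batch term, a replicate block, filters, thresholds, windows of 10 and 100 kb, centring on the 10 Mb window and leaving out each library.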

Additional observations from a re-analysis of the deposited data

Results flagged for a closer look

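In 7 of the 156 groups of 6 libraries searched (the 58 peaks, the named peaks of further pathway genes and the sums per gene, control and knockdown apart), 1 library stood apart by Dixon's 95% criterion, where chance gives about 1 in 20 groups, or 7.8. At the SMAD3 peak over the second listed start (chr15:67098050-67099167), control replicate 1 held 58.48 normalised counts and the other control libraries 37.92 to 45.09. It was the control library closest to the knockdown range, which began at 76.4. At the SMAD7 peak 13050 bases behind the gene (chr18:48906218-48906803), knockdown replicate 3 held 32.06 counts and the other knockdown libraries 14.91 to 20.09.

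Of the uncalled SMAD3 peaks behind the third listed start, the one at chr15:67127891-67128410 held 20.81 counts in control replicate 4 and 3.517 to 6.514 in the other control libraries. The one at chr15:67150085-67150784 had a library apart in each group: control replicate 3 held 33.41 counts against 12.99 to 17.34 in the others, and knockdown replicate 6 held 13.05 against 23.58 to 26.48. At the gained RNF111 peak control replicate 2 held 3.722 counts and the other control libraries 9.096 to 11.59. At the lost peak near DAB2 control replicate 5 held 62.14 counts and the others 28.59 to 36.42. The called peaks among these kept their call without the library that stood apart.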

How the results depend on the processing

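The count of called peaks was 20 of 58 at the pathway genes, 11185 over all peaks and 78 of 200 at the further genes. Requiring at least 10 counts in every library left 13 of 39, 5877 of 18255 and 42 of 143, of which 10, 5499 and 40 were also called without it. A fold change over 2 gave 11, 4545 and 28. A 10 kb window gave 12 of 34 peaks and 39 of 107, and a 100 kb window 28 of 81 and 129 of 313. Leaving out 1 library gave 18 to 21, 9741 to 10764 and 65 to 76. With edgeR the 58 peaks held 16 gains and 9 losses, beside 6428 gains and 6108 losses over all 26642 peaks. Without the batch term the 58 peaks held 15 and 9, and the counts over all peaks for that fit are not given here.

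In batch 1, edgeR called 14 in place of 6, and leaving out 1 library gave 0 to 4; where 1 knockdown library remained it was assumed to vary like the others, and all peaks then gave 314 and 252 calls. In batch 2 leaving out 1 library gave 9 to 13 in place of 14. The cause was not tested.

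The log2 fold change of the uncalled TGFBR1 peak at base 99109155 changed sign from -0.06 to 0.00088 without batch, to 0.034 with the replicate block and to 0.0084 with the count filter, and lay between -0.15 and 0.046 when 1 library was left out. That of the uncalled SKI peak at base 2230977 lay between -0.031 and 0.18. Of the 38 uncalled peaks 10 changed sign under some alternative and 6 were called under some. The latter were SMAD7 peaks at bases 48915678 (in 6 alternatives) and 48921980 (2) and the SMAD6 peak at 66802442 (4). The others were the TGFBR2 peak at 30729494 (3), the BMPR2 peak (3) and the SMAD3 peak at 67127891 (1). Of the 20 called peaks none changed sign, and 15 were called under every alternative that kept the peak, fold and p limits aside.

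A fit with the replicate block in place of batch called 17 of the 58 peaks (8 gained, 9 lost), 9495 of all and 65 of 200; the calls lost were the TGFB1 peak in CCDC97 (adjusted p = 0.0607), the SMAD3 peak over the third start (0.0736) and the SKIL peak just behind the gene (0.0713). The numbers share no more than a name: deviations of same-numbered libraries correlated between -0.09 and 0.23, number 3 lies in different batches, and 3 of 12 libraries correlated best with their own number. The SE of the log2 fold change was 0.09 at the SKI peak with the highest counts. It was 0.39 at a SMAD3 peak with a control median of 5.46 (chr15:67127891-67128410), where control replicate 4 stood apart. The part that depth plays in the SE was not tested.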
